A study of Mus musculus with 8 samples.

Results

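The angiopoietin and Tie receptor genes are Tek, Tie1, Angpt1 and Angpt2. These 4 genes were selected by symbol, with earlier results of these data known, from the 17326 genes of the mouse series that had a count in all 8 libraries. All 4 passed the filter on low counts, which kept 16477 genes.

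Tek, also called Tie2, and Tie1 are receptor tyrosine kinases of the endothelial surface. Angpt1 is a secreted ligand that activates Tek and quiets endothelium, and in the glomerulus it is known to come from podocytes and other cells around the capillary. Angpt2 binds the same receptor and acts as a weak agonist or an antagonist depending on context, and Tie1 binds neither ligand with high affinity and modulates Tek signalling.

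The libraries came from kidneys of EMCN+/+ mice (wild type) and EMCN-/- mice (knockout), which carry a homozygous loss of Emcn, the gene of endomucin, a sialomucin of the endothelial glycocalyx. Glomerular endothelium and podocytes, the epithelial cells that wrap the glomerular capillaries, were separated by fluorescence-activated cell sorting, and polyadenylated RNA was sequenced with a TruSeq protocol. Each of the 4 groups (wild-type endothelium, knockout endothelium, wild-type podocytes and knockout podocytes) held 2 libraries, numbered 2 and 3 in the labels. Strain, age, sex, the sort markers, the design of the allele and any pooling of animals were not given in the sources used here. Nothing states that the libraries of a group came from separate animals, so every p-value measures the spread between libraries, which may be technical.

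The 8 libraries held between 10478956 and 17386042 counts on complete lines, of which 10.1% to 26.2% were mitochondrial, and replicate 3 of wild-type endothelium lay apart from the others on the second principal component. In endothelium the mean of Emcn was 1900.2 ± 102 (SD, n = 2) in wild type and 176 ± 3.93 in knockout, in CPM, the counts scaled to a common library size. It averaged 55.0 CPM ± 27.0 in wild-type and 5.27 CPM ± 0.46 in knockout podocytes. It was 10.8-fold lower in knockout endothelium (edgeR adjusted p = 0.0205) and 10.4-fold lower in knockout podocytes (adjusted p = 0.0321). Its sign held without each library, but in endothelium the adjusted p without 1 library was 0.0838 to 0.191 and in podocytes 0.00661 to 0.558. The summed level of 9 of 10 endothelial markers was 8583.7 to 11190.6 CPM in the endothelial and 506 to 831 CPM in the podocyte libraries. The sum of 7 of 10 podocyte markers was 1251.8 to 2306 CPM in endothelium and 8302 to 18276.5 CPM in podocytes. The podocyte markers Nphs1 and Ptpro were not analysed here. Tubule markers were present in every library, with 7 of 10 summing to between 2817.3 and 13347.3 CPM, and no marker on any list was at 0 in both libraries of a group.

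Tek lies on chromosome 4 of GRCm38.p6 at chr4:94739086-94874976, on the plus strand, and Tie1 on the same chromosome at chr4:118471191-118489849, on the minus strand, in RefSeq's annotation. Angpt1 is at chr15:42424667-42676977 and Angpt2 at chr8:18690263-18741562, both on the minus strand. The promoter table, from RefSeq on the same build, held Tek and Tie1 but not Angpt1 or Angpt2, so 1 stretch of each receptor gene is shown. Capitals mark GGAA or its reverse complement TTCC, the core of sites for ETS factors, a family that includes the endothelial factors Fli1 and Erg. The Tek stretch (chr4:94739225-94739254, plus strand) runs from 64 to 35 bases before the transcript start that the table uses, and the Tie1 stretch (chr4:118490056-118490085, minus strand) from 236 to 207 bases before its start.
Tek: tattgTTCCtgaaaatgctgaccaggacct
Tie1: taggcGGAAgccactggcTTCCtccctttc
The table's start for Tek is the first base of Tek in GENCODE M21 (94739289), so the Tek stretch lies inside the longer span that RefSeq gives the gene. The end of the Tie1 stretch overlaps the first exon of a longer Tie1 transcript in GENCODE M21. In the 250 bases before each start, searched on both strands, GGAA occurred 2 times in Tek and 7 times in Tie1. It occurred in 93.4% of all 32851 promoters of the table. The longer ETS motif CCGGAAGT (2.88% of promoters), the FOXO motif GTAAACA (3.17%) and the GATA motif AGATAA (9.99%) were not among the letters of either window.

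The receptors were the members that differed most between the sorted cell types. Tek averaged 677 CPM in wild-type endothelium and 37.8 CPM in wild-type podocytes, and Tie1 averaged 565 and 18.8 CPM. Both were called higher in endothelium in each genotype. The share of all genes called in either direction by the same rule, an edgeR adjusted p under 0.05, was 8.99% in wild type, where 2 of the 4 members were called, and 10.4% in knockout, where 3 were called.

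Tek measured 770 and 585 CPM in replicates 2 and 3 of wild-type endothelium and 678 and 512 CPM in knockout endothelium. In podocytes it measured 37.7 and 37.9 CPM in wild type and 33.5 and 34.7 CPM in knockout. Every endothelial library lay above every podocyte library, and replicate 2 was the higher library in both endothelial groups. The difference on the log2 scale was 4.16 (SE 0.28, 95% interval 3.55 to 4.77) in wild type, which is 17.9-fold (edgeR adjusted p = 3.1e-05). It was 4.13 (SE 0.28) in knockout, 17.5-fold (edgeR adjusted p = 2.5e-05). By p, Tek ranked 11 of 16477 genes in wild type and 12 in knockout.

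Tie1 measured 615 and 515 CPM in wild-type endothelium and 727 and 608 CPM in knockout endothelium. In podocytes it measured 19.6 and 17.9 CPM in wild type and 15.1 and 35.7 CPM in knockout. The endothelial and podocyte libraries did not overlap, and the highest podocyte value was in replicate 3 of the knockout. The log2 difference was 4.91 (SE 0.41, 95% interval 4.01 to 5.81) in wild type, 30.1-fold (edgeR adjusted p = 6.7e-05), and 4.72 (SE 0.40) in knockout, 26.3-fold (edgeR adjusted p = 7.6e-05). Without replicate 3 of wild-type endothelium, the library that lay apart, the wild-type differences were 4.35 for Tek and 5.03 for Tie1. Both receptors passed the threshold without each of the 8 libraries.

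**Figure D1:**
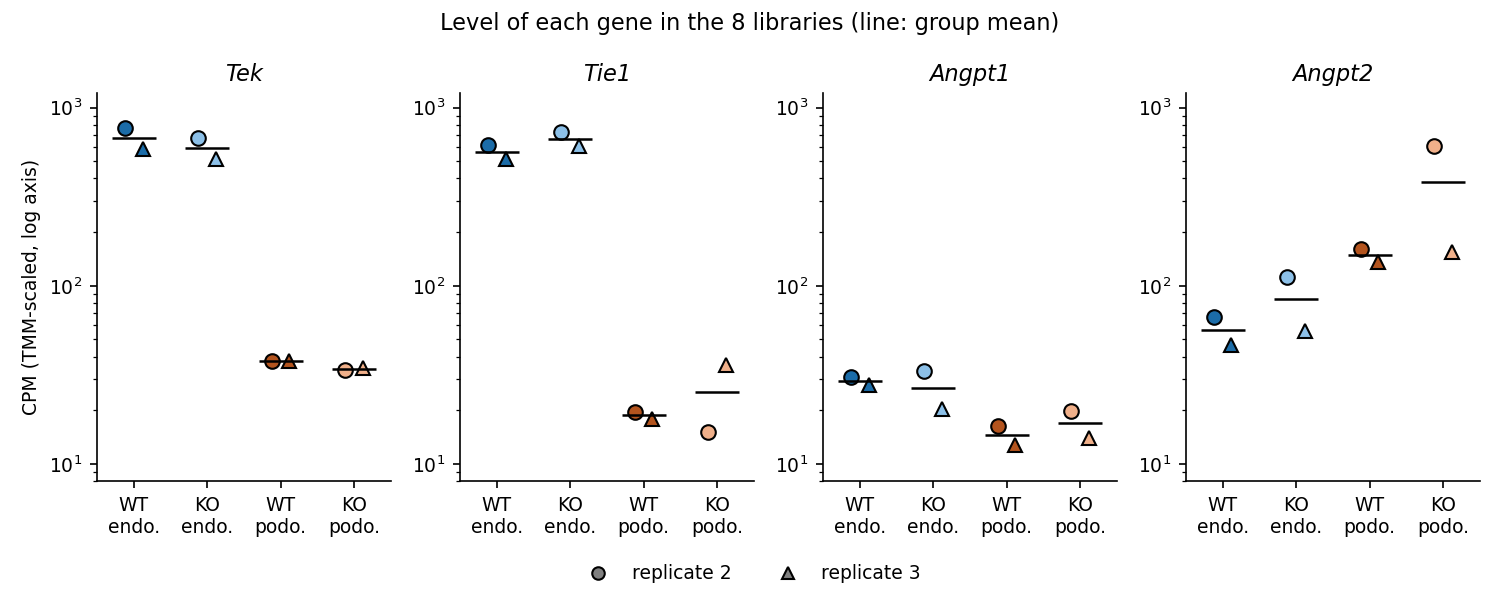
Level of each of the 4 genes in every library, as TMM-scaled CPM, on a log axis, in the 4 sorted groups (WT wild type, KO knockout); circles are replicate 2, triangles replicate 3, and each line is the mean of 2 libraries. Tek and Tie1 lie between 512 and 770 CPM in endothelium and at or below 37.9 CPM in podocytes, and Angpt2 reaches 606 CPM in 1 knockout podocyte library.

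The receptor signal in podocyte libraries was compared with that of endothelial markers, since a sorted podocyte fraction can carry endothelial RNA. The podocyte level of Tek was 5.58% of its endothelial level in wild type and 5.73% in knockout, and that of Tie1 was 3.33% and 3.80%. Among 9 endothelial markers this percentage ran from 2.96 to 39.4 in wild type, with a median of 8.66, and from 2.73 to 13.0 in knockout, with a median of 5.24. Egfl7, a secreted endothelial protein, was lowest in wild type at 2.96%, and Plvap, which forms the diaphragms of fenestrated endothelium, was highest at 39.4%. Both receptors lay inside the range of the markers in each genotype. Plvap alone set the upper end in each, and the next highest were Eng (12.7%) in wild type and Esam (9.15%) in knockout. Whether the receptor transcripts in podocyte libraries came from podocytes or from endothelial cells in the sort was not tested. In sorted bulk samples, fewer cells of a type and less RNA per cell cannot be told apart.

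**Figure D2:**
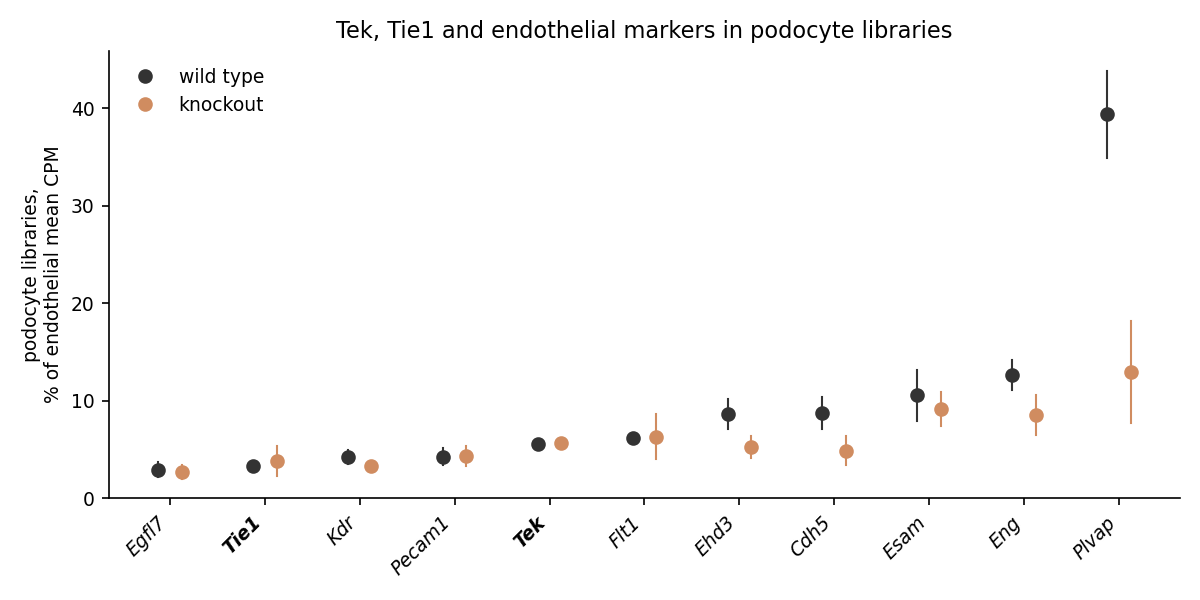
Podocyte level as a percentage of the endothelial level, by genotype, for Tek, Tie1 and 9 endothelial markers; points are the mean of 2 podocyte libraries and lines join them. Tek (5.58% and 5.73%) and Tie1 (3.33% and 3.80%) fall inside the marker ranges of 2.96% to 39.4% in wild type and 2.73% to 13.0% in knockout.

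The ligands had cell type differences of opposite sign, Angpt1 with the higher level in endothelium and Angpt2 with the higher level in podocytes. Angpt1 averaged 29.3 CPM ± 2.37 (SD, n = 2) in wild-type endothelium and 14.5 CPM ± 2.47 in wild-type podocytes. Angpt2 averaged 56.6 CPM ± 14.0 in wild-type endothelium and 149 CPM ± 17.5 in wild-type podocytes. Of the 4 ligand comparisons between cell types, 1 passed the test, Angpt2 in knockout.

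Angpt1 measured 30.9 and 27.6 CPM in wild-type endothelium and 33.3 and 20.3 CPM in knockout endothelium. In podocytes it measured 16.3 and 12.8 CPM in wild type and 19.8 and 13.9 CPM in knockout, from counts of 176 to 319. The podocyte libraries were below the endothelial ones in each genotype, but in knockout the nearest values were 19.8 and 20.3 CPM. Groups with endothelium wholly higher made up 21.2% of all genes in wild type and 27.3% in knockout. The log2 difference was 1.01 in wild type (SE 0.32, 95% interval 0.29 to 1.72, edgeR adjusted p = 0.0911) and 0.67 in knockout (SE 0.32, 95% interval −0.04 to 1.38, edgeR adjusted p = 0.25). In wild type it passed the threshold with DESeq2's Wald test (1.05, adjusted p = 0.0453) and in an edgeR fit of the 4 wild-type libraries alone (1.11, adjusted p = 0.0264). It did not pass with limma voom (1.01, adjusted p = 0.105) or with libraries scaled by total count only (1.08, edgeR adjusted p = 0.145). Without 1 of the 4 wild-type libraries it ran from 0.84 to 1.21. Angpt1 shares 737 exon bases with Gm17473, an antisense gene, and the use of strand in counting was not stated, so reads of the 2 genes cannot be told apart there.

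Angpt2 measured 66.5 and 46.7 CPM in wild-type endothelium and 112 and 56.0 CPM in knockout endothelium. In podocytes it measured 161 and 136 CPM in wild type and 606 and 154 CPM in knockout. It was the only member with podocyte libraries above the endothelial ones, which held in both genotypes. Groups with endothelium wholly lower made up 25.7% of all genes in wild type and 27.8% in knockout. The log2 difference of endothelium from podocytes was −1.39 in wild type (SE 0.54, 95% interval −2.58 to −0.20, edgeR adjusted p = 0.173) and −2.18 in knockout (SE 0.55, 95% interval −3.39 to −0.96, edgeR adjusted p = 0.03), where Angpt2 was 4.52-fold higher in podocytes. The wild-type difference passed the threshold in an edgeR fit of the 4 wild-type libraries alone (−1.29, adjusted p = 0.00296). It did not pass with DESeq2's Wald test (−1.35, adjusted p = 0.0506) or limma voom (−1.41, adjusted p = 0.139). With libraries scaled by total count only it also did not pass (−1.3, edgeR adjusted p = 0.31). Without 1 of the 4 wild-type libraries it ran from −1.67 to −1.16. The knockout call rested on replicate 2 of knockout podocytes and replicate 3 of knockout endothelium: the difference was −0.88 (adjusted p = 0.283) without the former and −1.77 (adjusted p = 0.155) without the latter. It also missed the threshold with library size only (adjusted p = 0.102), a mean of at least 5 CPM (0.0591) or the 4 knockout libraries alone (0.0896). Angpt2 lies within Mcph1 on the opposite strand and shares 0 exon bases with it.

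**Figure D3:**
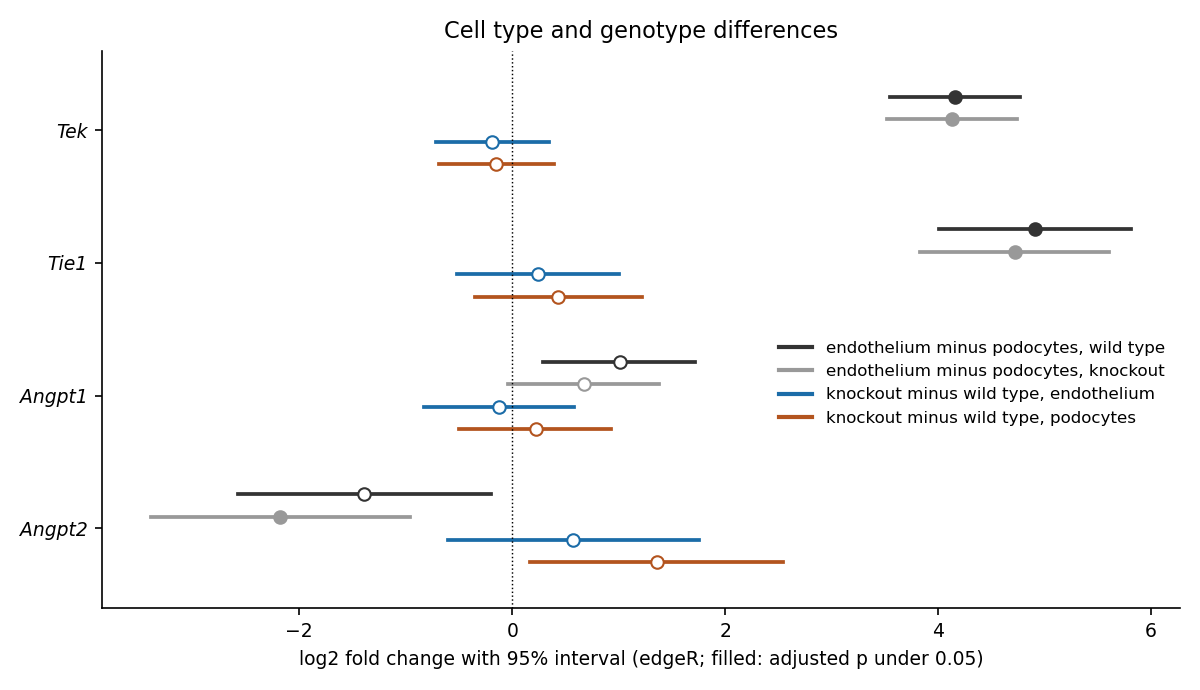
Log2 fold change of the 4 genes between cell types and between genotypes, with 95% intervals from the edgeR fit of all 8 libraries; filled points passed an adjusted p of 0.05. Tek and Tie1 lie at 4.13 to 4.91 for endothelium against podocytes, and no knockout-minus-wild-type point is filled.

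The series compares EMCN-/- with EMCN+/+ within each cell type, and the 4 members were set against that comparison. In endothelium 0 of the 4 passed the edgeR test, 0 had an unadjusted p under 0.05 (5.49% of all genes had one), and DESeq2 and limma voom each called 0. Over all genes edgeR called 1 (0.00607%). In podocytes 0 of 4 passed with edgeR, DESeq2 or voom, against 1 gene in all with edgeR (0.00607%), and 1 member, Angpt2, had an unadjusted p under 0.05, as did 4.43% of all genes.

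In knockout endothelium the log2 fold change against wild type was −0.19 for Tek (SE 0.24, 95% interval −0.72 to 0.35) and 0.24 for Tie1 (SE 0.34, 95% interval −0.52 to 1.0). It was −0.12 for Angpt1 (SE 0.32, 95% interval −0.83 to 0.58) and 0.57 for Angpt2 (SE 0.53, 95% interval −0.60 to 1.75). The edgeR adjusted p-values were 0.756 to 0.908, and the knockout and wild-type libraries overlapped for all 4 genes, while over all genes 24.8% had knockout wholly higher and 19.7% wholly lower. The interval for Tek reached from 1.65-fold lower to 1.27-fold higher, and that for Angpt2 from 1.52-fold lower to 3.36-fold higher, and changes within those bounds are not excluded. With libraries scaled by total count only, the median of all genes moved to 0.33, and Tek (0.13) and Angpt1 (0.22) took the opposite sign. Relative to that median they stood at −0.20 and −0.11. The value for Angpt2 without replicate 2 of knockout endothelium was −0.02.

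In knockout podocytes Tek differed from wild type by −0.15 on the log2 scale (SE 0.25, 95% interval −0.69 to 0.39, edgeR adjusted p = 0.991). Neither knockout library reached the lower of the wild-type values, a pattern shared by 16% of all genes. Tie1 differed by 0.43 (SE 0.35, 95% interval −0.35 to 1.22, edgeR adjusted p = 0.978), and its 2 knockout libraries lay on either side of the wild-type values. The level in knockout replicate 3 was 2.36 times that in replicate 2, and the difference was −0.32 without replicate 3 and 0.92 without replicate 2. Of the 9 endothelial markers, 4 were also higher in knockout replicate 3 than in replicate 2. Flt1 measured 11.9 CPM in replicate 2 and 25.7 CPM in replicate 3, Egfl7 34.9 and 60.5 CPM and Kdr 42.7 and 60.9 CPM, and Pecam1 reached 48.7 CPM in replicate 3. The other 5 were lower in replicate 3, and the part of the endothelial markers in the Tie1 value was not tested. Angpt1 differed by 0.22 (SE 0.32, 95% interval −0.50 to 0.93, edgeR adjusted p = 0.987), and by −0.06 without knockout replicate 2.

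Angpt2 in podocytes had the largest genotype difference among the members, 1.36 on the log2 scale (SE 0.53, 95% interval 0.17 to 2.54). Its adjusted p in the edgeR fit was 0.978, and it ranked 400 of 16477 genes by p. Knockout replicate 2, at 606 CPM, was 4.08 times the wild-type mean of 149 CPM, and knockout replicate 3, at 154 CPM, was 1.04 times that mean. The wild-type libraries at 161 and 136 CPM enclosed knockout replicate 3, so the groups overlapped. The ratio between the 2 knockout libraries was 3.94. Without knockout replicate 2 the difference was 0.05 (edgeR adjusted p = 0.987), and without knockout replicate 3 it was 2.03 (edgeR adjusted p = 0.259).

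Markers of other cells also differed between the 2 knockout podocyte libraries. The sum of 8 of 11 mural and mesangial markers, genes of the contractile and support cells of vessels and glomeruli, was 1307.1 CPM in replicate 2 and 514 CPM in replicate 3. In wild-type podocytes it was 987 and 953 CPM, and in the endothelial libraries 326 to 680 CPM. Pdgfrb, Acta2 and Myh11 of that list were not analysed here. The sum of 7 podocyte markers was lower in knockout replicate 2, at 8302 CPM against 10959.5 CPM in replicate 3. The 7 tubule markers summed to 6370.2 and 7678 CPM in those libraries, but 5 of the 7 were higher in replicate 2, as Angpt2 was. Aqp2 measured 1802.7 and 469 CPM there, Aqp1 1083.9 and 428 CPM, Pax8 626 and 239 CPM, Lrp2 183 and 65.3 CPM and Cdh16 1448.8 and 1058.8 CPM. In wild-type podocytes Aqp1 measured 228 and 279 CPM and Pax8 247 and 264 CPM. In those wild-type libraries Aqp2 measured 657 and 1204.3 CPM, Lrp2 49.7 and 104 CPM and Cdh16 948 and 1223.9 CPM. Umod, at 1225.3 and 5416.3 CPM in the knockout libraries, and Kap were lower in replicate 2. The 9 endothelial markers summed to 638 and 506 CPM but did not move together: Ehd3 (193 and 125 CPM), Plvap (104 and 43.9 CPM), Eng, Esam and Cdh5 were higher in replicate 2, and Pecam1, Kdr, Flt1 and Egfl7 in replicate 3. The 5 immune markers on complete lines summed to at most 49.9 CPM in any library, the 6 lymphatic markers to at most 138 CPM and the 1 erythroid marker to at most 1.41 CPM. The part of the mural, mesangial and tubule markers in the Angpt2 value was not tested.

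**Figure D4:**
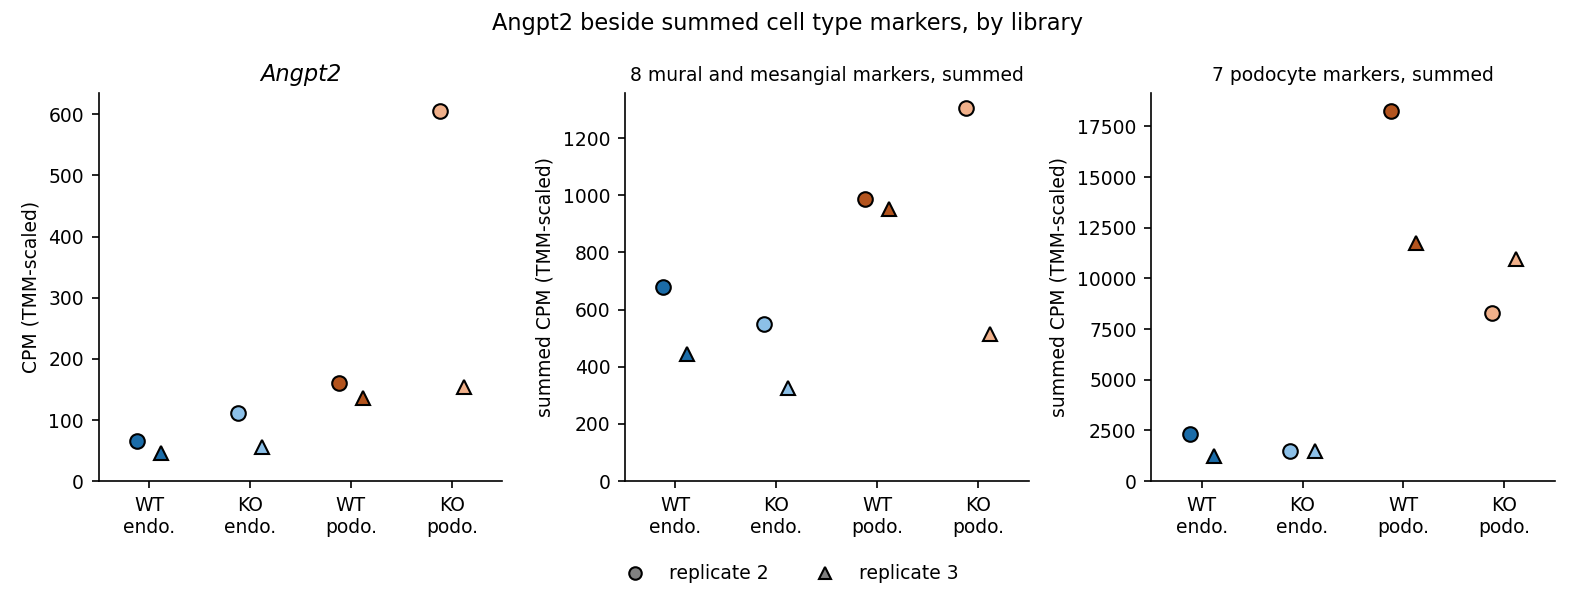
TMM-scaled CPM of Angpt2, summed CPM of 8 mural and mesangial markers and summed CPM of 7 podocyte markers in each library, by group; circles are replicate 2 and triangles replicate 3. Knockout podocytes replicate 2 is highest for Angpt2 (606 CPM) and for the mural and mesangial sum (1307.1 CPM), and below the other podocyte libraries for the podocyte sum (8302 CPM).

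The genotype effect in endothelium was also tested against that in podocytes. The difference of the effects was −0.04 for Tek (SE 0.34), −0.19 for Tie1 (SE 0.49), −0.34 for Angpt1 (SE 0.45) and −0.78 for Angpt2 (SE 0.75) on the log2 scale. The edgeR adjusted p was 1.0 for all 4 and none had an unadjusted p under 0.05. Over all genes edgeR, DESeq2 and voom called 0, and 428 of 16477 (2.6%) had an unadjusted p under 0.05 in edgeR. For Angpt2 the sign turned without replicate 2 of knockout podocytes, to 0.52. For Tie1 it turned without replicate 3 of knockout podocytes, to 0.55.

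Levels of different genes were compared only per kilobase of exon. In wild-type endothelium the order was Tek (144 CPM per kilobase ± 27.8, SD, n = 2), Tie1 (115 ± 14.4), Angpt2 (15.3 ± 3.79) and Angpt1 (5.62 ± 0.455). Tek at 163 and 124 and Tie1 at 125 and 105 CPM per kilobase overlapped, while the libraries of Tie1, Angpt2 and Angpt1 were separate from each other. In knockout endothelium Tie1 (136 ± 17.1) and Tek (126 ± 24.9) again overlapped, followed by Angpt2 (22.8 ± 10.8) and Angpt1 (5.15 ± 1.77). In wild-type podocytes Angpt2 led (40.2 ± 4.75), followed by Tek (8.02 ± 0.0263), Tie1 (3.82 ± 0.245) and Angpt1 (2.79 ± 0.474), and no neighbours in that order overlapped. In knockout podocytes Angpt2 averaged 103 ± 86.7, Tek 7.23 ± 0.176, Tie1 5.16 ± 2.96 and Angpt1 3.24 ± 0.799. There Tie1 (3.07 and 7.26) overlapped both Tek (7.11 and 7.36) and Angpt1 (3.81 and 2.68), and Angpt2 (164 and 41.7) stood above the rest. Angpt2 thus led per kilobase in podocytes and the receptors in endothelium, which also held per kilobase of coding length. On that scale, chosen after seeing the data, Angpt1 moved above Tie1 in wild-type podocytes (9.72 and 5.52) while in knockout podocytes the means of Angpt1, Tek and Tie1 were 11.3, 10.1 and 7.46 CPM per coding kilobase and the libraries of Angpt1 overlapped those of both receptors.

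Across the 4 groups, each member had its own order of levels in CPM. Tek ran from wild-type endothelium through knockout endothelium, wild-type podocytes and knockout podocytes. Its endothelial groups overlapped, while its podocyte groups, at 37.8 ± 0.124 and 34.1 ± 0.829 CPM, did not overlap but did not pass the test. Tie1 ran from knockout endothelium through wild-type endothelium, knockout podocytes and wild-type podocytes, with overlap within each cell type. Angpt1 ran from wild-type to knockout endothelium and then from knockout to wild-type podocytes, with overlap within each cell type. Angpt2 ran from knockout podocytes (380 CPM ± 320) through wild-type podocytes and knockout endothelium (84.1 CPM ± 39.7) to wild-type endothelium, also with overlap within each cell type.

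Ratios between 2 genes of 1 library do not depend on how libraries are scaled, and they were compared across libraries, not read as levels. The count ratio of Angpt2 to Angpt1 was 2.15 and 1.69 in wild-type endothelium and 3.36 and 2.76 in knockout endothelium. It was 9.89 and 10.7 in wild-type podocytes and 30.6 and 11.0 in knockout podocytes. Both knockout values lay above both wild-type values in each cell type, with replicate 3 of knockout podocytes close to the wild-type libraries. The count ratio of Tek to Tie1 was 1.25 and 1.14 in wild-type endothelium and 0.933 and 0.842 in knockout endothelium. It was 1.92 and 2.11 in wild-type podocytes and 2.22 and 0.971 in knockout podocytes. The endothelial groups did not overlap, and the knockout podocyte libraries lay on either side of the wild-type ones. The count ratio of Tek to Angpt1, receptor to activating ligand, was 24.9 and 21.2 in wild-type endothelium, 20.3 and 25.2 in knockout endothelium, 2.32 and 2.97 in wild-type podocytes and 1.69 and 2.49 in knockout podocytes.

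An exact two-sided permutation test on log2 ratios was run for each genotype comparison and for the cell types within genotype, 9 tests in all. With 2 libraries against 2, the smallest p such a test can give is 0.333, which the Angpt2 to Angpt1 ratio reached in both cell types (log2 differences 0.68 in endothelium and 0.84 in podocytes) and the Tek to Tie1 ratio in endothelium (−0.43). Between cell types within genotype the smallest exact permutation p is 0.0556, and all 3 ratios reached it, with log2 differences of endothelium from podocytes of −2.51 for Angpt2 to Angpt1, −0.74 for Tek to Tie1 and 3.30 for Tek to Angpt1. Adjusted over the 9 tests, those exact p-values were 0.167 and 0.5, so this permutation test could not reach 0.05 with these libraries.

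**Figure D5:**
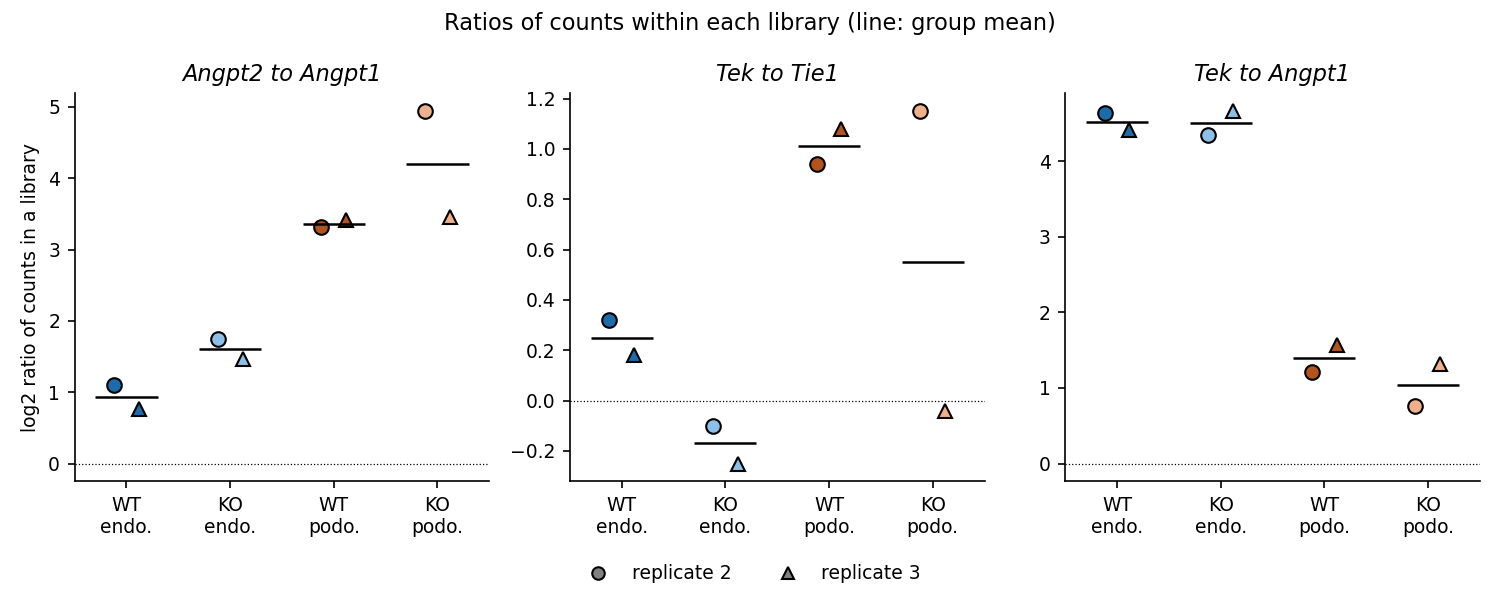
Log2 count ratios of Angpt2 to Angpt1, Tek to Tie1 and Tek to Angpt1 in each library, by group; circles are replicate 2, triangles replicate 3 and lines group means. On the linear scale the Angpt2 to Angpt1 ratio is 1.69 to 3.36 in endothelium and 9.89 to 30.6 in podocytes, and the Tek to Angpt1 ratio is 20.3 to 25.2 in endothelium and 1.69 to 2.97 in podocytes.

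The genes whose pattern was most like each member were found among 10076 genes averaging at least 5 CPM. Likeness was the root-mean-square difference of centred log2 CPM over the 8 libraries, which share the 2 cell types, so 0 is an identical pattern. For Tek the nearest were Ldb2 (0.14), Tmem44 (0.15) and Tspan7 (0.20), against a median of 2.15 over all genes, and Tie1 stood at 0.53 from it. For Tie1 they were Cd38 (0.21), Ushbp1 (0.23) and Tmem88 (0.25), against a median of 2.54. Those 3 genes were also higher in replicate 3 than in replicate 2 of knockout podocytes, at 20.9 against 11.9 CPM for Cd38, 22.6 against 11.5 CPM for Ushbp1 and 11.7 against 6.71 CPM for Tmem88, a direction shared with Tie1 that the choice by likeness favours. For Angpt1 they were Arid5b (0.12), Trip10 (0.14) and Tapbpl (0.15), against a median of 0.65. For Angpt2 they were Prelp (0.26), Cdh2 (0.29) and Bok (0.31), against a median of 1.10, and Angpt1 stood at 1.36. In replicates 2 and 3 of knockout podocytes Prelp, a matrix proteoglycan, measured 29.0 and 8.85 CPM, Cdh2, which encodes N-cadherin, 28.3 and 9.44 CPM, and Bok, a Bcl2 family member, 48.4 and 20.6 CPM. The 3 genes thus had the high value in the same library as Angpt2, which the choice by likeness favours.

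Other genes of the pathway were read from 5 lists, of which 56 genes were on complete lines and tested. In each genotype comparison and in the difference between them edgeR called 0 of the 56. At an unadjusted p under 0.05 there were 4 in endothelium, 3 in podocytes and 4 in the difference, beside 5.49%, 4.43% and 2.6% of all genes. Voom called 0 throughout, and DESeq2 called 1, in endothelium. That gene was Esm1, a proteoglycan of sprouting endothelium, at 46.7 and 35.1 CPM in wild-type and 228 and 71.8 CPM in knockout endothelium, a log2 difference of 1.87 (SE 0.45, edgeR adjusted p = 0.716, DESeq2 adjusted p = 0.0486). The smallest p in the other direction belonged to Grb14, an adaptor that binds Tek, at −0.85 (SE 0.29, edgeR adjusted p = 0.716). In podocytes the smallest p-values were those of the integrin subunit gene Itgb3 (log2 difference 1.34, SE 0.32) and the ETS factor gene Fli1 (−1.20, SE 0.28), both at an edgeR adjusted p of 0.978.

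Among receptor partners and modulators, 4 of 10 genes tested were called higher and 2 lower in wild-type endothelium than in podocytes, beside 4.26% and 4.73% of all genes. In knockout 3 were higher and 2 lower, beside 4.28% and 6.09%. With scaling by total count only, the split of all knockout calls moved from 705 higher and 1004 lower to 738 higher and 480 lower. Cdh5, the cadherin of endothelial junctions, was 11.4-fold higher in endothelium in wild type (edgeR adjusted p = 0.000151) and 20.2-fold higher in knockout, and also serves as an endothelial marker here. Itgb3 was 9.28-fold higher in wild type and 3.80-fold higher in knockout, and the tetraspanin gene Tspan18 was 4.78-fold higher in wild type (edgeR adjusted p = 0.00949). In knockout the fold for Tspan18 was 2.74 (edgeR adjusted p = 0.0659), which passed with DESeq2 (adjusted p = 0.00822). The knockout podocyte libraries of Tspan18 were far apart, at 131 CPM in replicate 2 and 40.1 CPM in replicate 3. In wild type it lost its call without wild-type podocytes replicate 2 (edgeR adjusted p = 0.1) or replicate 3 (0.0886). Itga5, a fibronectin receptor subunit, was 2.88-fold higher in wild type (edgeR adjusted p = 0.0145) and 3.94-fold higher in knockout (edgeR adjusted p = 0.00366). The wild-type call was lost without endothelium replicate 2 (edgeR adjusted p = 0.101) or podocytes replicate 3 (0.132). Thbs1, a matrix glycoprotein that restrains vessel growth, and the integrin subunit gene Itgav were higher in podocytes, by 5.13-fold and 4.84-fold in wild type and 8.65-fold and 4.26-fold in knockout. The list median on the log2 scale was 0.20 in wild type and −0.04 in knockout, beside −0.01 for all genes in each. The remaining ligand of the family, Angpt4, chosen for mention after its values were seen, averaged 5.27 to 6.76 CPM in the 4 groups and overlapped in every comparison. Ptprb, the phosphatase that restrains Tek, and Svep1 were not analysed here.

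Among 18 signal relays downstream of the receptors, 4 were called higher and 2 lower in wild-type endothelium, beside 4.26% and 4.73% of all genes. In knockout 4 were higher and 3 lower, beside 4.28% and 6.09%. Mapk3, which encodes the kinase ERK1, was 2.92-fold and 2.70-fold higher in endothelium in wild type and knockout. Akt2, a kinase that acts downstream of Tek, was 3.08-fold and 2.95-fold higher in podocytes. Foxo1, the transcription factor that Akt holds out of the nucleus, was higher in endothelium by 2.50-fold in wild type (edgeR adjusted p = 0.00449) and 2.11-fold in knockout (edgeR adjusted p = 0.0142). The adaptor gene Nck1 was also higher there, by 2.01-fold in wild type (edgeR adjusted p = 0.018) and 2.37-fold in knockout (edgeR adjusted p = 0.00591). Pak1, a kinase of the actin cytoskeleton, was 9.81-fold and 6.73-fold higher in podocytes, and the adaptor gene Grb7 was 2.63-fold higher in knockout podocytes, beside a fold of 1.29 in wild type (edgeR adjusted p = 0.512). In wild type the edgeR adjusted p of Foxo1 was 0.0575 without podocytes replicate 3, and that of Nck1 was 0.0515 to 0.171 without any 1 of the 4 libraries. In knockout that of Foxo1 was 0.0893 without endothelium replicate 2, 0.0657 without podocytes replicate 2 and 0.0542 without podocytes replicate 3, and that of Grb7 was 0.0641 without knockout endothelium replicate 2. The median was −0.05 in wild type and −0.31 in knockout. Ptpn11, Pik3ca and Nos3 were not analysed here.

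Of 12 FOXO targets tested, genes held active when Tek signalling is low, 1 was called in each genotype, near the 8.99% and 10.4% of all genes called in wild type and knockout. It was Esm1, higher in endothelium 26.9-fold in wild type (edgeR adjusted p = 0.00033) and 67.2-fold in knockout (edgeR adjusted p = 0.000119). The list median was 0.47 in wild type and −0.09 in knockout. Of the 7 angiopoietin-like genes, which encode secreted relatives not known as Tek ligands, 2 were called in each genotype, both higher in podocytes, beside 4.73% of all genes in wild type and 6.09% in knockout. Angptl2 measured 2665.9 and 2028.1 CPM in wild-type podocytes and 302 and 89.0 CPM in wild-type endothelium, a 12.0-fold difference, and 7.90-fold in knockout. Angptl7 was 16.6-fold higher in podocytes in wild type and 6.03-fold in knockout (edgeR adjusted p = 0.0392), where the call was lost without any 1 of the 4 knockout libraries (edgeR adjusted p = 0.0642 to 0.205). The knockout call of Angptl7 was also lost with DESeq2 (adjusted p = 0.0665) and with libraries scaled by total count only (edgeR adjusted p = 0.111). The list median was −0.66 in wild type and −1.41 in knockout.

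Of 9 factors known to act on Tek or Tie1, 6 were called higher in endothelium in each genotype and 0 lower: Tal1, Fli1, Erg, Elf1, Epas1 and Gata2. Over all genes 4.26% were called higher in wild type and 4.28% in knockout. Fli1 was 7.81-fold higher in wild type and 16.4-fold higher in knockout (edgeR adjusted p = 4.1e-05), with 130 and 124 CPM in wild-type endothelium and 19.0 and 13.5 CPM in wild-type podocytes. Tal1, a helix-loop-helix factor of blood and endothelium, measured 6.31 and 6.66 CPM in wild-type endothelium from 83 and 92 counts, and 0 and 3 counts in wild-type podocytes. Erg was 6.17-fold higher in wild type (edgeR adjusted p = 0.0377) and 5.31-fold in knockout (edgeR adjusted p = 0.0484). With libraries scaled by total count only, Erg passed in neither genotype (edgeR adjusted p = 0.0584 in wild type and 0.0554 in knockout). The list median was 1.93 in wild type and 2.13 in knockout. At an unadjusted p under 0.05 in edgeR, 7 of the 9 passed in wild type and 6 in knockout, beside 19.6% and 22.9% of all genes. Gata3 of this list is also on the mural and mesangial marker list, and Ets1, Ets2 and Elk3 were not analysed here. The Erg calls were lost without either endothelial library or without podocyte replicate 2, with edgeR adjusted p of 0.0875 to 0.241 in wild type and 0.127 to 0.228 in knockout.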

How the data were processed

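The authors deposited 1 table of raw counts per Entrez gene for the 8 libraries, with columns named after alignment files, per the file headers. The submitters' processing notes name the build mm10 and DESeq2, and the aligner, counter, annotation and strand setting were not given in the sources used here. Of 22533 gene lines, 5207 (23.11%) held fewer than 8 counts and were not analysed here. Because of these short lines, cells of 3 columns are empty there, while on complete lines the deposited values of all 8 columns are whole numbers and were analysed as counts.

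The 4 members and all lists were chosen with earlier results of these data known. Counts were analysed with edgeR 4.0.16 (R 4.3.3): filterByExpr, TMM scaling, 1 mean per group over all 8 libraries, quasi-likelihood F tests and Benjamini-Hochberg adjustment over all 16477 genes at 0.05. Standard errors were taken from the ratio of each log2 fold change to the root of its F statistic. CPM was computed with TMM, and a prior count of 2 was used on the log2 scale. Named genes of each list were up to 3 per direction of largest change among called genes whose groups do not overlap, or the smallest p in each direction where none was called, and 3 genes of nearest pattern per member, though not every gene so chosen is reported here. Exon lengths came from GENCODE M21. Alternatives used DESeq2 1.42.0, limma 3.58.1 (voom), other scalings, filters and subsets. Ratios were tested by exact permutation in Python 3.11.15, with Benjamini-Hochberg adjustment in scipy 1.17.1. The scripts were tested on simulated data.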

Additional observations from a re-analysis of the deposited data

How the results depend on the processing

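Tek and Tie1 kept their calls between cell types under every alternative run, with log2 differences of 3.95 to 4.35 and 4.78 to 5.03 in wild type and 3.90 to 4.42 and 4.22 to 5.46 in knockout. In wild type Angpt1 passed at an adjusted p under 0.10 (1.01), with DESeq2 (1.05) and with the 4 libraries alone (1.11), and Angpt2 with the 4 libraries alone (−1.29). Neither passed there with library size only (1.08 and −1.3) or voom (1.01 and −1.41), and Angpt2 did not pass with DESeq2 (−1.35). In knockout Angpt2 did not pass with library size only (−1.87), a mean of at least 5 CPM (−1.99) or the 4 libraries alone (−2.15). The cause was not tested. Signs turned with library size only for Tek (0.13) and Angpt1 (0.22) in endothelium and for the interaction of Tek (0.17), Tie1 (0.02) and Emcn (0.15). For the interaction that scaling moved the median of all genes to 0.18, and relative to it Tek stood at −0.01 and Tie1 at −0.16, so that neither sign turned against it. They turned with a mean of at least 5 CPM for Angpt1 in endothelium (0.04) and for the interaction of Tek (0.05) and Emcn (0.03). No genotype value of a member passed under any alternative.

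The count of genes called for genotype in endothelium was 1 in the edgeR fit, 10 with DESeq2, and 0 with library size only or a mean of at least 5 CPM. In podocytes it was 1 in the edgeR fit, 12 with DESeq2, and 0 with library size only, voom, a mean of at least 5 CPM or the 4 libraries alone.

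Without 1 library each, the count called was 0 to 0 in endothelium, 0 to 1 in podocytes, 769 to 1085 between cell types in wild type and 960 to 1809 in knockout, against 1481 and 1709 with all. Such fits leave 1 library in an arm, which is assumed to vary like the other groups. For genotype in endothelium the values ran from −0.41 to 0.02 for Tek, 0.10 to 0.37 for Tie1, −0.53 to 0.18 for Angpt1 and −0.02 to 0.98 for Angpt2. For genotype in podocytes they ran from −0.18 to −0.13 for Tek, −0.32 to 0.92 for Tie1, −0.06 to 0.45 for Angpt1 and 0.05 to 2.03 for Angpt2. For the interaction they ran from −0.26 to 0.17 for Tek, −0.69 to 0.55 for Tie1, −0.75 to −0.03 for Angpt1, −1.46 to 0.52 for Angpt2 and −0.67 to 0.37 for Emcn. Between cell types in knockout they ran from −2.86 to −0.88 for Angpt2. Between cell types in wild type they ran from 0.84 to 1.21 for Angpt1 and from −1.67 to −1.16 for Angpt2.

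Same-numbered libraries share only a number in the labels. Their deviations from the group means correlated across genes at 0.19 and 0.16 for genotype in endothelium and podocytes, and at −0.13 and 0.11 between cell types in wild type and knockout. With the number as a replicate block, the counts called were 1, 1, 0, 1831 and 2241 for the 5 contrasts, and in wild type Angpt1 (1.02, edgeR adjusted p = 0.0295) and Angpt2 (−1.44, edgeR adjusted p = 0.0204) passed. With the wild-type podocyte numbers crossed, chosen after seeing the data, the block called 1570 genes and 2 of the 4 members, Tek and Tie1, against 4 of 4 members uncrossed.

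Levels per kilobase depend on the length used. With coding length, also chosen after seeing the data, 15 of 16 group levels moved by more than 1 SD. That shift is a change of unit, since the levels of each gene are divided by its shorter coding length. The order of Angpt1 and Tie1 in wild-type podocytes turned. The coding length from RefSeq proteins, listed as an alternative, was not run. With 2 libraries per group, small differences of the ligands are not resolved.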
